A study of Mus musculus with 7 samples.

Results

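The genes described here encode proteins of the matrix around the mammary epithelium. Values from whole glands do not show which cells expressed them. Of the 10 genes on the list, 2 form fibres (Fn1 and Fbn1), 2 are enzymes that cross-link fibres (Lox and Loxl1) and 6 are matricellular (Tnc, Postn, Sparc, Thbs1, Thbs2 and Spp1), that is, secreted into the matrix to regulate cells rather than to bear load. They were taken by symbol, and 8 of the 10 were measured by a probe set annotated to that symbol alone, out of 18193 genes so measured. Spp1 and Fbn1 were not analysed here. All 8 passed a filter on dim signal that left 12497 genes for testing.

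The samples were whole mammary glands of virgin female FVB mice, 8 weeks old, every one of which carried PyV-MT, the middle T oncogene of polyoma virus, a transgene that produces mammary tumours. No source used here names the promoter that drives the transgene, and glands without it were not analysed here. From 4 weeks of age until collection, 4 weeks later, the mice ate an AIN93G control chow or a chow with 1% conjugated linoleic acid (CLA), a family of linoleic acid isomers. The study placed 5 mice on the control diet and 6 on CLA, and 3 control and 4 CLA glands, each on 1 Affymetrix array, are compared. The sample titles carry a number that starts with 27 (control replicate 1 and CLA replicate 1) or 28 (the other 2 control and 3 CLA arrays). What this number marks is not stated.

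Fibronectin and fibrillin assemble into fibrils and microfibrils on which collagen and elastin are deposited. Lysyl oxidases then oxidise lysines of collagen and elastin so that the fibres cross-link. Tenascin C, periostin, osteonectin (Sparc), the thrombospondins and osteopontin (Spp1) sit among these fibres, bind integrins and other receptors, and are known for high expression in wound repair and in tumour stroma.

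The values are MAS5 signals, one number per probe set on a linear scale, where a probe set is the group of short probes that detect one transcript. The mean of each array, trimmed by 2% at each end, was 500, so arrays had already been scaled. The Actb control probes at the 3′ end over those at the 5′ end, a ratio that increases when RNA is degraded, was 2.78 on CLA replicate 3 and 1.41 to 1.88 on the other 6 arrays. Defining markers of mammary epithelium and of fibroblasts were present on every array. Krt8, a keratin of luminal cells, lay between 15379 and 19240, and the summed signal of 10 fibroblast markers was 44956 to 61992 in control glands and 53355 to 70140 in CLA glands, so the groups overlapped. In whole glands, fewer cells of a type and less RNA per cell cannot be told apart. A log2 change below is the mean log2 signal of the CLA arrays minus that of the control arrays, so that 1 is a doubling, and it is given with its standard error (SE) from limma. The adjusted p is limma's, by Benjamini and Hochberg over all 12497 genes, with a threshold of 0.05.

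No member passed this threshold, and neither did any other gene. Across all genes 0% were called at an adjusted p under 0.05, and the members' adjusted p ran from 0.762 to 0.999. At an unadjusted p under 0.05 there were 3 of 8 members, Thbs2, Tnc and Fn1, each with a higher mean in CLA glands, where 5.39% of all genes reached that level in either direction 2.38% with higher and 3.01% with lower CLA signal. For each of the 8, the range of control signals overlapped that of CLA signals, while the groups did not overlap for 5.31% of all genes, CLA being higher for 2.64% and lower for 2.67%. The log2 change was above 0 for 6 of 8 members and for 55.3% of all genes, and its median was 0.21 over the members and 0.027 over all genes.

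**Figure D1:**
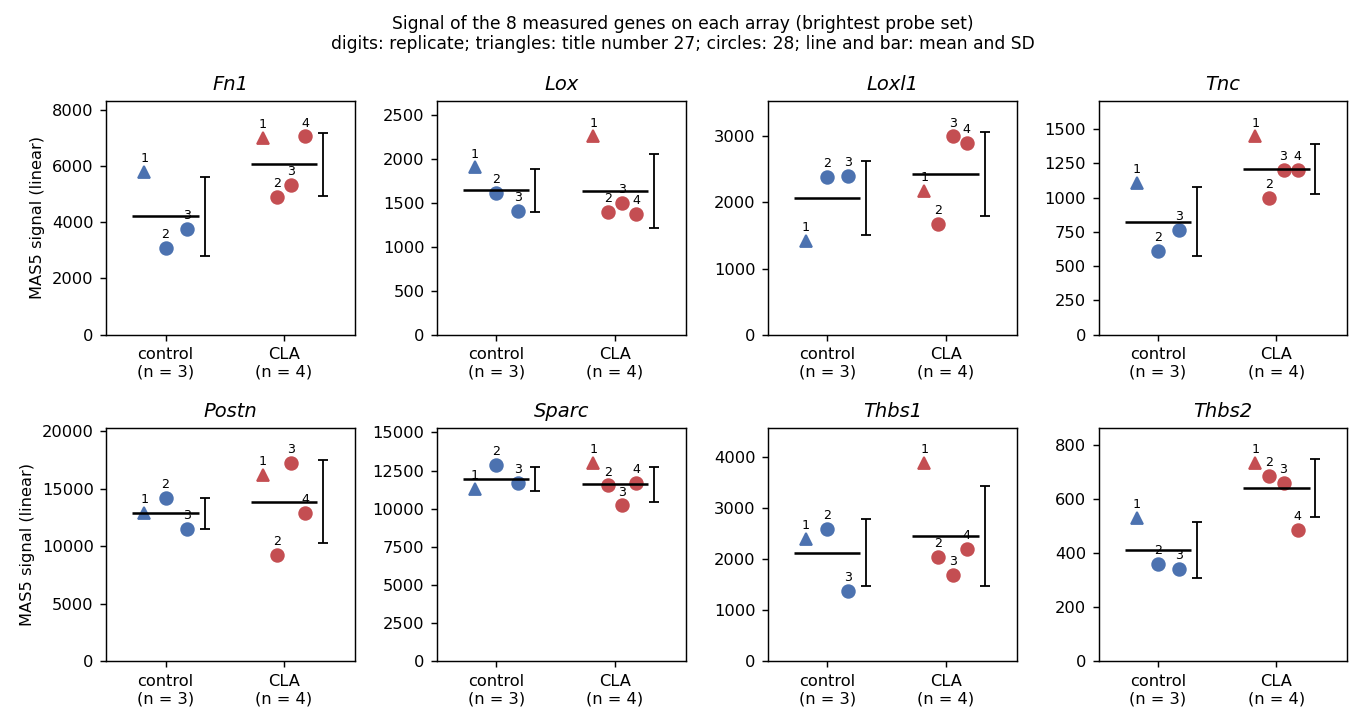
MAS5 signal (linear axis from 0) of the 8 measured genes on each of the 3 control and 4 CLA arrays, with the group mean as a line and the SD as a bar; digits give the replicate and triangles mark title numbers that start with 27. Control replicates 2 and 3 sit lowest for Fn1, Tnc and Thbs2, while the groups are mixed for Lox, Postn, Sparc and Thbs1.

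Fn1, fibronectin, is the fibre-forming member that was measured. Its brighter probe set had signals of 5785, 3080 and 3769 on control replicates 1 to 3, a mean of 4211 ± 1406 (SD, n = 3). On CLA replicates 1 to 4 the signals were 7004, 4886, 5330 and 7050, a mean of 6068 ± 1123 (SD, n = 4). Every CLA array lay above control replicates 2 and 3, but control replicate 1 lay above CLA replicates 2 and 3, so the groups overlapped. The log2 change of Fn1 was 0.56 ± 0.22 (SE), a 1.47-fold higher mean with a 95% interval from 1.04-fold to 2.09-fold, with limma's unadjusted p of 0.0332 and adjusted p of 0.878. A second, much dimmer Fn1 probe set, with signals between 109 and 322, had a log2 change of 0.14 ± 0.38 (SE), so its interval holds both no change and that of the brighter one.

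Tnc encodes tenascin C, a large hexameric glycoprotein that loosens cell attachment to fibronectin. The brighter Tnc probe set gave 1103, 608 and 761 on the control arrays, a mean of 824 ± 254 (SD, n = 3). CLA replicates 1 to 4 gave 1446, 999, 1201 and 1200, a mean of 1212 ± 183 (SD, n = 4). All CLA arrays but replicate 2 lay above every control array. The log2 change of Tnc was 0.59 ± 0.22 (SE), or 1.50-fold with an interval from 1.07-fold to 2.11-fold (limma unadjusted p = 0.0235, adjusted p = 0.855). The other Tnc probe set was dim, 67.0 to 201, and showed -0.055 ± 0.41 (SE), the opposite sign within a wide error.

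Thbs2 and Thbs1 encode thrombospondins, trimeric proteins that restrain blood vessel growth, and Thbs1 also activates latent TGF-beta. Thbs2 signal was 530, 360 and 343 on control replicates 1 to 3 (mean 411 ± 103, SD, n = 3) and 733, 687, 661 and 488 on CLA replicates 1 to 4 (mean 642 ± 107, SD, n = 4). CLA replicate 4 was the one CLA array that fell within the control range. Thbs2 had the largest log2 change of the measured members, 0.66 ± 0.22 (SE), or 1.58-fold with an interval from 1.13-fold to 2.21-fold (limma unadjusted p = 0.0134, adjusted p = 0.762). Both other Thbs2 probe sets had changes of the same sign, 0.60 ± 0.40 and 0.32 ± 0.24 (SE), neither of which passed. The 0.60 came from a probe set with 718 on CLA replicate 3, the array of highest Actb ratio. It had 207 to 314 on the other CLA arrays and 187 to 276 on the control arrays.

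By the brightest probe sets, Thbs1 varied more between arrays than any other measured member, with a 2.81-fold spread from the lowest to the highest of the 7 arrays. Its signals were 2394, 2591 and 1377 on the control arrays and 3870, 2039, 1694 and 2187 on the CLA arrays. CLA replicate 1 stood above all others, and the remaining CLA arrays lay within the control range. The log2 change was 0.19 ± 0.30 (SE), with an interval from -0.49 to 0.86. The second Thbs1 probe set gave 0.40 ± 0.36 (SE), again highest on CLA replicate 1. A probe set annotated to both Thbs1 and Pald1 was not used.

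Sparc, osteonectin, which binds collagen, was the steadiest of the 8 when each was read by its brightest probe set. Its signals were 11300, 12850 and 11692 on the control arrays and 12974, 11520, 10210 and 11686 on the CLA arrays, a 1.27-fold spread over all 7. Only 6.52% of all genes tested had a smaller spread, the median being 1.72-fold. The log2 change of Sparc was -0.046 ± 0.12 (SE), with an interval from 0.81-fold to 1.16-fold, so larger shifts lay outside the interval of this probe set. A second Sparc probe set of like brightness gave 0.15 ± 0.16 (SE), the opposite sign, with an interval from 0.87-fold to 1.42-fold. It spread 1.65-fold and was highest on CLA replicate 3 (14336), where the first was lowest (10210). After centring each array on its median the first gave 0.035. Neither probe set passed.

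Postn, periostin, which joins fibronectin, tenascin C and collagen in one meshwork, had 1 probe set. Its signals were 12874, 14204 and 11461 in control glands and 16215, 9217, 17199 and 12881 in CLA glands. The lowest and the highest of the 7 arrays were thus both CLA arrays, replicates 2 and 3. The log2 change was 0.076 ± 0.21 (SE), with an interval from 0.77-fold to 1.45-fold.

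Of the cross-linking enzymes, Lox gave 1906, 1617 and 1413 on the control arrays and 2259, 1397, 1505 and 1370 on the CLA arrays. The array pair with title numbers starting with 27 held the highest control and the highest CLA value, and the other 3 CLA arrays lay below control replicates 1 and 2. The log2 change of Lox was -0.032 ± 0.20 (SE) on its brightest probe set, 0.049 on the same probe set after median centring, and 0.25 ± 0.33 (SE) on its second probe set, with none past the threshold. Loxl1, lysyl oxidase-like 1, which acts on elastin, gave 1424, 2379 and 2395 on the control arrays and 2167, 1667, 2999 and 2905 on the CLA arrays. For Loxl1 it was control replicate 1 that was lowest and CLA replicates 3 and 4 that were highest, an order unlike that of Lox. The Loxl1 change was 0.24 ± 0.25 (SE), and its second, dim probe set gave -0.016 ± 0.49 (SE).

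**Figure D2:**
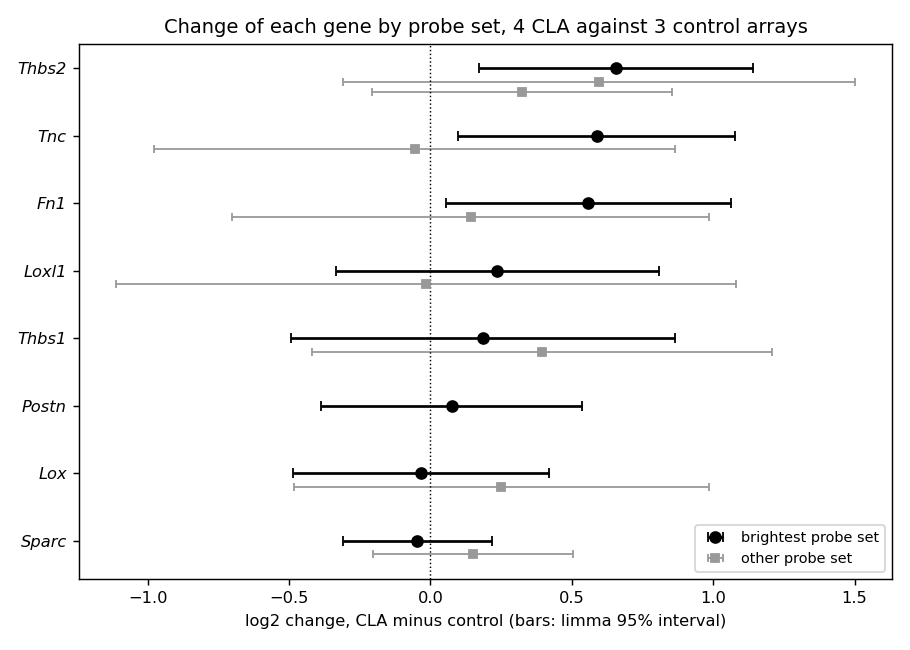
Log2 change, CLA minus control, of each gene on its brightest probe set (black circles) and on its other probe sets past the filter (grey squares), with limma's 95% intervals. The intervals of Thbs2, Tnc and Fn1 lie above 0 on the brightest probe set only, and no probe set passed after adjustment over all genes.

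Of the 18 probe sets of the 8 genes, 16 passed the filter on dim signal, and the 2 that did not belonged to Lox and Sparc. With all probe sets averaged per gene in place of the brightest one, the log2 changes of Thbs2, Fn1 and Tnc were 0.53, 0.35 and 0.27. Thbs2 alone then reached an unadjusted p under 0.05 in limma (0.0286), so that 1 member did in place of 3.

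The 8 genes did not share one order of the arrays. By their brightest probe sets, 7 of 8 members were above their own mean over the 7 arrays on CLA replicate 1. There 5 of 8 (Lox, Tnc, Sparc, Thbs1 and Thbs2) had their highest signal, against 11.3% of all genes. The other probe sets of Thbs1 and Lox past the filter were also highest there. Those of Thbs2 and Sparc were highest on CLA replicate 3, and that of Tnc was lowest on CLA replicate 1. The median deviation of CLA replicate 1 over the members was 0.48 on the log2 scale. On control replicate 3, 1 of 8 was above its own mean, with a median deviation of -0.31. CLA replicate 2, with a median deviation of -0.082, had 1 of 8 above its mean, and there Thbs2 was high (0.40) while Postn (-0.52) and Loxl1 (-0.41) were low.

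**Figure D3:**
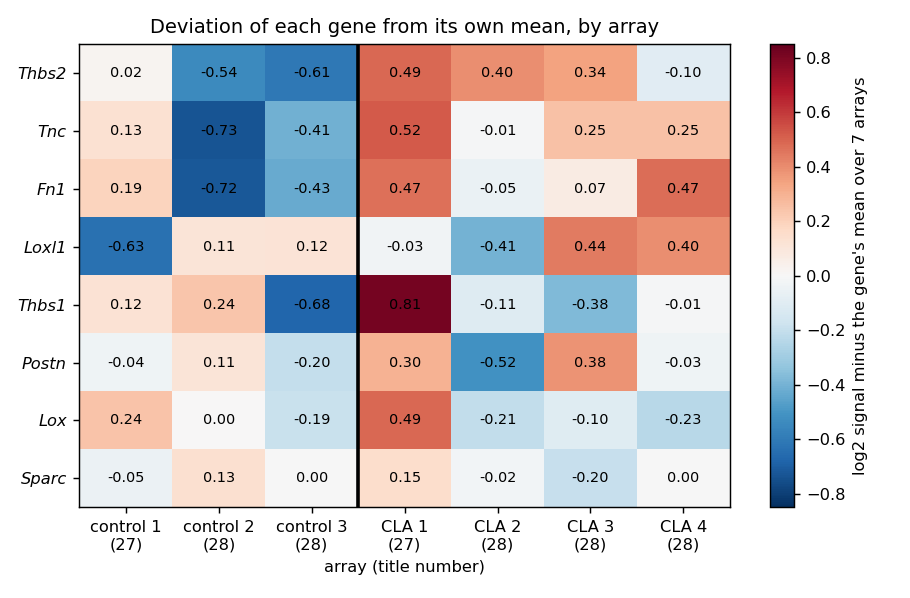
Log2 signal of each gene (rows) on each array (columns, with the leading digits of the title number) minus the gene's mean over all 7 arrays; the black line parts control from CLA arrays. Thbs2, Tnc and Fn1 share low values on control replicates 2 and 3 (-0.73 to -0.41), whereas Loxl1 is lowest on control replicate 1 (-0.63) and Thbs1 on control replicate 3 (-0.68).

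Within the title numbers, the brightest probe sets of Thbs2, Tnc and Fn1 separated by diet. Among arrays with numbers starting with 28, every CLA array was above both control arrays for these 3 of 8 members, as for 15.9% of all genes. CLA replicate 1 was above control replicate 1 for all 8 members, as for 50.9% of genes. Both held for 3 of 8 members and for 7.79% of genes. This comparison was chosen after the values were seen, and none of the other probe sets of these genes showed it in full. The Thbs2 probe set of next highest mean had 620 on control replicate 1 and 526 on CLA replicate 1, and the dim Tnc probe set had 144 and 67.0 there. The dim Fn1 probe set had 154 and 174 on control replicates 2 and 3, above the 109 and 147 of CLA replicates 2 and 3. The dimmest Thbs2 probe set had 276 on control replicate 2, above the 231 of CLA replicate 2. The log2 difference within numbers starting with 27, from 1 array per group and so without a test, was 0.47 for Thbs2, 0.39 for Tnc and 0.28 for Fn1. For numbers starting with 28 these differences were 0.79, 0.73 and 0.74. Blocking on the number in limma gave changes of 0.69 ± 0.17, 0.63 ± 0.15 and 0.60 ± 0.17 (SE), with unadjusted p-values of 0.00388, 0.00298 and 0.00709 and an adjusted p of 0.564 for each. For the other 5 members the block gave changes from -0.041 (Sparc) to 0.24 (Thbs1), none with an unadjusted p under 0.05.

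Single arrays moved these counts. The number of members with an unadjusted p under 0.05, 3 with all arrays, was 1 without control replicate 2 or without CLA replicate 1 (Thbs2 each time), 0 without control replicate 3 and 2 without CLA replicate 4. It was 3 without control replicate 1, CLA replicate 2 or CLA replicate 3. Without control replicate 2 the Fn1 change was 0.36, against 0.56 with all arrays, and the Tnc change was 0.39, against 0.59. Without control replicate 1 the changes of Fn1, Tnc and Thbs2 were 0.81, 0.82 and 0.85. No member passed after adjustment with any array left out.

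**Figure D4:**
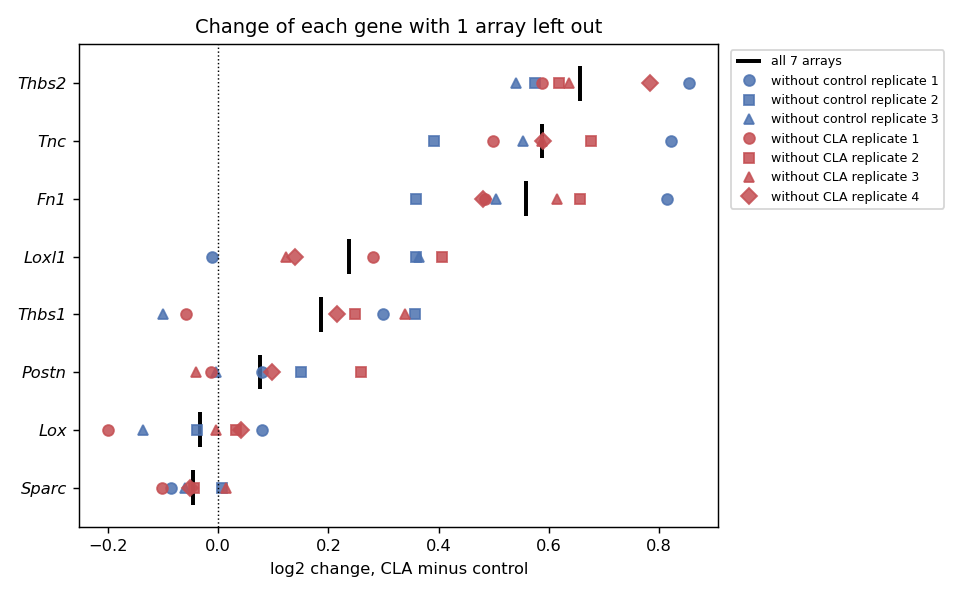
Log2 change, CLA minus control, of each gene with all 7 arrays (black bar) and with each array left out in turn (blue for a control array, red for a CLA array). Thbs2, Tnc and Fn1 stay between 0.36 and 0.85, and the other 5 genes have values on both sides of 0.

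Markers of other cell types differed between the same arrays. In what follows, sums are of linear signal, and counts of markers with a higher or lower mean are of mean log2 signal. The summed signal of 7 skeletal muscle markers was 8533 to 77946 in control and 271 to 12544 in CLA glands. The highest sum was on control replicate 2, where the brightest probe sets of Fn1 and Tnc were lowest. All 7 muscle markers had a lower mean in CLA glands, and none was at 0 on any array. CLA replicate 1 had a muscle sum of 12544, between those of control replicates 1 and 3 (8533 and 13896). The brightest probe sets of Tnc, Thbs1, Thbs2, Lox and Sparc were highest there. White adipocyte markers, 6 of 8 measured and all with lower means, summed to 42647 to 51957 in control and 13483 to 34251 in CLA glands. Basal and myoepithelial markers, 4 of 6 with a higher mean, summed to 4144 to 7259 in control and 7432 to 9345 in CLA glands, again lowest on control replicate 2. For fibroblast markers 8 of 10 had a higher mean in CLA glands, with a median log2 change of 0.13. For macrophage markers it was 7 of 9, with sums of 24423 to 31573 in control and 23948 to 30631 in CLA glands. The 2 with a lower mean were Csf1r and Cd14. Cd14 is a bright marker in this sum, with mean signals of 9775 in control and 5968 in CLA glands. For endothelial markers 2 of 6 had a higher mean in CLA glands, with sums of 2265 to 2869 and 1948 to 2607. Luminal markers, 4 of 8 with a higher mean, summed to 115450 to 143750 in control and 96194 to 133050 in CLA glands, lowest on CLA replicate 3. On that array Csn2, a marker on this list, was 4449, against 31031 to 42033 on the other arrays. The sum of 4 bone and cartilage markers was 167 to 201 in control and 209 to 435 in CLA glands, with no overlap, and 2 of the 4, Ibsp and Col2a1, were too dim to pass the filter. The part of these cells in the values of the members was not tested.

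Among related genes, no list had a member past the adjusted threshold. Of 13 tested matricellular genes outside the 10, 9 had a positive and 4 a negative change, with a median of 0.20 and 0 at an unadjusted p under 0.05. The smallest p-values belonged to Tnxb, a tenascin of connective tissue (-0.56 ± 0.36, SE), Ccn4, a CCN protein (0.58 ± 0.40), and Thbs4, another thrombospondin (0.78 ± 0.54). Of 15 elastic fibre and microfibril genes, 11 were positive and 4 negative, with a median of 0.20 and again 0 at an unadjusted p under 0.05. Fbln1, a fibulin that binds fibronectin (0.50 ± 0.26), Emilin1, an elastin-associated glycoprotein (0.31 ± 0.23), and Ltbp2, a microfibril-associated protein (0.37 ± 0.30), came first by p.

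Of 11 tested genes for the remaining lysyl oxidases and for collagen processing, 8 were positive, with a median of 0.17. An unadjusted p under 0.05 was reached by 1 of the 11, Bmp1, and by 5.39% of all genes. Bmp1, the protease that removes the C-terminal propeptide of fibrillar procollagens and also activates lysyl oxidase, had signals of 502, 394 and 501 on the control arrays and 630, 736, 730 and 795 on the CLA arrays. All CLA arrays lay above all control arrays. Its log2 change was 0.64 ± 0.17 (SE), with a limma unadjusted p of 0.00351 and an adjusted p of 0.688. Loxl3, a lysyl oxidase-like enzyme, had 0.37 ± 0.23, and Pcolce2, a procollagen processing enhancer, had -0.36 ± 0.28.

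The receptors of these proteins were mixed, with 6 of 15 positive, 9 negative and a median of -0.077. At an unadjusted p under 0.05 there were 1 with a higher CLA mean, Sdc1, and 1 with a lower one, Cd36. Cd36, a thrombospondin receptor that is also a fatty acid importer of adipocytes, had a log2 change of -1.50 ± 0.26 (SE; limma unadjusted p = 2.12e-04, adjusted p = 0.295), lower on every CLA array (685 to 1532) than on any control array (2362 to 3602), beside the lower adipocyte marker sums above. Sdc1, the heparan sulphate proteoglycan syndecan 1, had 0.47 ± 0.15 (limma unadjusted p = 0.0101, adjusted p = 0.708). Its signals were 1302 to 1660 in control and 1761 to 2259 in CLA glands, without overlap. Sdc4, syndecan 4, which acts with integrins in adhesion to fibronectin, had -0.25 ± 0.17. Of 12 TGF-beta signalling genes, 6 were positive and 6 negative, with a median of -0.039 and 0 at an unadjusted p under 0.05. Tgif1, a co-repressor of the pathway (0.49 ± 0.25), the signal transducer Smad2 (0.35 ± 0.19) and the ligand Tgfb2 (-0.40 ± 0.31) had the smallest p-values.

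**Figure D5:**
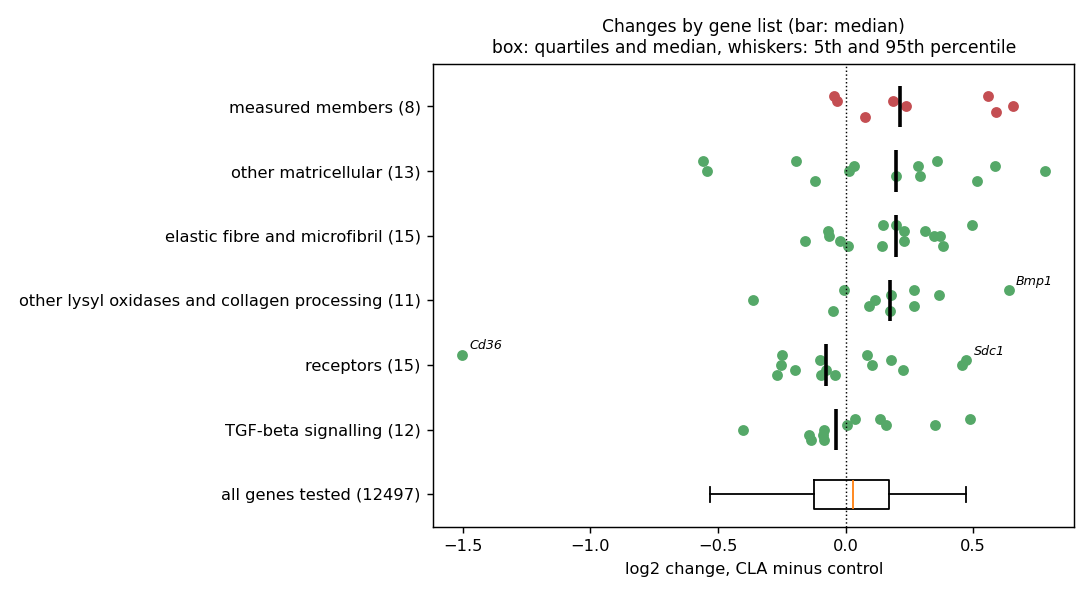
Log2 change, CLA minus control, of each tested gene by list (points) with the list's median (bar), and of all 12497 genes tested as a box of quartiles with whiskers at the 5th and 95th percentile. Members and the 3 lists of matrix genes have medians from 0.17 to 0.21, receptors and TGF-beta genes -0.077 and -0.039, and all genes 0.027.

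The promoter windows of 4 members show, next to one another, the start regions of a pair of genes with unadjusted p under 0.05 (Tnc and Thbs2) and of a pair with changes near 0 (Postn and Sparc). RefSeq's table for GRCm38.p6, which runs from 250 bases before to 50 bases after a start, matched 6 of the 10 symbols. It holds 2 starts each for Tnc and Postn, of which the one at the outer end of the gene is printed. The windows are chr4:64046966-64047265 (minus strand) for Tnc, chr17:14694213-14694512 (minus strand) for Thbs2, chr3:54359017-54359316 (plus strand) for Postn and chr11:55420031-55420330 (minus strand) for Sparc. They were searched on both strands for the letters of 4 common promoter elements, spelled out after the sequences, none of which shares letters with another in these windows. Capitals mark the matches, each sequence being given 5′ to 3′ on the gene's strand.
Tnc: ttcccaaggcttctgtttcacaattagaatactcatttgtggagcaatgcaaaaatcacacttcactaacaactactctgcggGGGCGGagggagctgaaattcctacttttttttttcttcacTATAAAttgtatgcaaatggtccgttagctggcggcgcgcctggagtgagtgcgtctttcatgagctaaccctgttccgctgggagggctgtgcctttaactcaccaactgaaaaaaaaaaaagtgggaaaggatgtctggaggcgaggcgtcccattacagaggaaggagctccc
Thbs2: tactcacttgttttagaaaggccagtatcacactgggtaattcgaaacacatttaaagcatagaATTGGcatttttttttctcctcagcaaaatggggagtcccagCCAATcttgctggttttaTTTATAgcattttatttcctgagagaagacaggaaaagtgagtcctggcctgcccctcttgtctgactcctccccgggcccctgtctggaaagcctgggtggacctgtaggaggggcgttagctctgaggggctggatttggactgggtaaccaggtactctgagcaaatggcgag
Postn: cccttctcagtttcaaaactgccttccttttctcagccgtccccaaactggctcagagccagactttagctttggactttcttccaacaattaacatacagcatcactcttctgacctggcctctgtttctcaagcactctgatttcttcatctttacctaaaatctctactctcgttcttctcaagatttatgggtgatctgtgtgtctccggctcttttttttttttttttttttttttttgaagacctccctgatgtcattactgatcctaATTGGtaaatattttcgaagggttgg
Sparc: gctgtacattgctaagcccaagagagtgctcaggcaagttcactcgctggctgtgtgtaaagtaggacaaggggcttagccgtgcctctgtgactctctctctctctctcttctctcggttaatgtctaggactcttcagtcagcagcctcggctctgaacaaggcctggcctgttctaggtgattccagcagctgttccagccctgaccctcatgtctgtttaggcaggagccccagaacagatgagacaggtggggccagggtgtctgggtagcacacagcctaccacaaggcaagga

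The letters of the TATA box, TATAAA, were found once in Tnc and once, on the opposite strand, in Thbs2. Both matches had the first base at -126, the RefSeq start being counted as 0. Whether either match acts as a TATA box was not tested. The printed Postn and Sparc windows did not hold these letters. The windows of the second starts of Tnc and Postn each held TATAAA once. The second Tnc window, chr4:64046887-64047186, overlaps the printed one, and its match is the same site. Of 32851 windows of this length in the table, 13.6% held TATAAA. The GC box, searched as GGGCGG, occurred in Tnc at -167, as in 35.7% of windows. The CCAAT box occurred in Thbs2 at -186 and -144 and in Postn at 24, as in 37.4% of windows. The AP-1 site, searched as TGANTCA and held by 7.81% of windows, was in none of the 4 nor in those of the second starts. These are matches of letters and not measured binding sites.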

How the data were processed

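Per the labels, biotin-labelled total RNA of whole glands was measured on Affymetrix arrays, 1 colour and 45101 probe sets each. The submitters' processing notes name MAS5, and the deposited values fit a linear signal intensity; which version and settings were used is not given. Global scaling makes every change relative to the rest of a gland's transcripts. Arrays were taken as separate mice, as the labels describe them. If they were not, p-values measure only the spread between these samples.

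A floor of 1 was applied to the signals before log2. After 64 control probe sets were left out, 34945 probe sets with 1 gene symbol were used, 932 with several and 9160 with none were not. Symbols came from GEO's platform annotation, updated by gene identifier through RefSeq's GRCm38.p6 gene table. The probe set of highest mean log2 signal stood for each gene, and genes dimmer than the 40th percentile, 57.7, were left out, 5696 in all. limma 3.58.1 in R 4.3.3 (lmFit, eBayes with trend) compared CLA with control, two-sided. Other probe sets of the members were tested in a fit of all probe sets past the filter. The fit was tested on simulated data. Intervals are at 95%. Plots used matplotlib 3.10.9 (Python 3.11.15).

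The members, lists and rules were chosen with earlier results of these data known. The rule named all members and the 3 genes of smallest p in each list of related genes, and for each member the 3 tested genes most correlated with it.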

Additional observations from a re-analysis of the deposited data

Results flagged for a closer look

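Lox signal on CLA replicate 1 was 2259 on the brightest probe set, and the nearest of the other 3 CLA arrays was at 1505. The gap took up 0.848 of the range of the CLA group, above Dixon's 95% critical value for a group of 4. Of 16 probe sets tested in this way, on the CLA arrays only, 1 stood out, and chance gives about 1 in 20. The control arrays were not tested in this way. Without CLA replicate 1 the Lox log2 change was -0.20, against -0.032 with all arrays.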

How the results depend on the processing

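No member passed an adjusted p under 0.05 in any of the alternatives tried, nor did a threshold of 0.1 change this, and the median log2 change of the members stayed between 0.043 (title numbers starting with 28 alone) and 0.36. Over all genes 0 passed, 3 with array weights, 1 within title numbers starting with 28, and 0 to 17 with an array left out. No alternative other than another probe set changed the sign of Thbs2, Tnc or Fn1. Tnc was -0.055 on its second probe set. The other 5 members changed sign, and the cause was not tested. With array weights Lox was 0.034, Loxl1 -0.10 and Postn -0.034. Median centring gave 0.049 for Lox and 0.035 for Sparc, and the title number as a block gave 0.010 for Lox. Replicate numbers were given in accession order and pair no arrays. Within title numbers starting with 28 Postn was -0.0082, and within those starting with 27 Lox was 0.25 and Sparc 0.20. On other probe sets Lox was 0.25, Loxl1 -0.016 and Sparc 0.15. With an array left out, Lox ran from -0.20 to 0.079, Loxl1 from -0.011 to 0.41, Postn from -0.041 to 0.26, Sparc from -0.10 to 0.014 and Thbs1 from -0.099 to 0.36. The comparisons by other probe sets and within title numbers starting with 27 were chosen after seeing the data. With 3 and 4 arrays, precision is limited by their number.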

Other observations

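The genes whose log2 signal followed each member most closely over the 7 arrays are given as a description, since with so few arrays and 12497 genes high values arise readily. Fn1 and Tnc shared a neighbour, Dlgap5, a mitotic spindle gene, with Pearson r of 0.988 and 0.968. The gene closest to Fn1 was Mastl, a mitotic kinase gene (r = 0.990), and the gene closest to Tnc was Zfand4 (r = 0.969). Also among the 3 nearest were Pgam5 for Fn1 (r = 0.984) and Srrm1 for Tnc (r = 0.969). Thbs2 lay closest to Ttc27 (r = 0.986) and Thbs1 to Cep76 (r = 0.973). Loxl1 lay closest to Epsti1 (r = 0.983) and next to Thy1 (r = 0.977), a marker on the fibroblast list. Lox lay closest to Hps3 (r = 0.974), Postn to Itpripl1 (r = 0.965) and Sparc to F2rl2 (r = 0.966). Among the 3 nearest genes of each member there was no other member.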
